A study of Mus with 16 samples.

Results

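The 200 longest of the 116747 transcripts quantified in mouse epiblast stem cells were followed across 16 libraries of 4 F1 crosses. They were chosen by transcript length alone, expressed or not, and run from 14141 to 123179 bases, with a median of 15713 bases against 1049 bases for all transcripts. The shortest transcripts taken had 14164 and 14141 bases, and the longest left out had 14134 and 14091. Every cross combines the laboratory strain C57Bl/6J with a wild-derived inbred strain, and the crosses are named CastB6, MolfB6, PwkB6 and SpretB6. Each has 4 libraries of ribodepleted total RNA, which carry the numbers 1, 3, 5 and 6 in CastB6, PwkB6 and SpretB6 and 1, 2, 3 and 6 in MolfB6. The labels do not say what the number marks, and each numbered library is called a line here. The bulk libraries were made so that the assignment of reads to alleles could be set against that of single-cell libraries, but the tables used here hold totals without alleles. Neither the direction of the crosses nor the sex of the lines is given in the labels, and separate cultures are not stated for the lines of a cross, so the p-values speak for the spread of these 16 libraries alone, and that spread may be technical.

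Epiblast stem cells are a pluripotent cell type resembling the embryo's epiblast after implantation. As general background, the longest mammalian transcripts include messages for giant structural, motor and adhesion proteins, messages with very long untranslated ends, and long noncoding RNAs. A long transcript yields many fragments per molecule, so it collects many reads at a low molar level. TPM, a share of all transcript molecules, divides reads by the effective length and is the scale used here to compare transcripts with each other. CPM, a share of all counted reads, keeps the length in and serves only to compare the same transcript between libraries. The files name transcripts by Ensembl ID and do not pair them with genes, and 0 of the 200 could be matched to a gene symbol in the mouse gene table used here. Transcripts are therefore named by ID and length, their functions are not stated, and the epiblast label could not be checked against marker genes.

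Library totals ran from 42596559 to 72364991 estimated reads, and the 200 transcripts took 0.442% to 0.646% of these in 15 libraries. The library PwkB6 6 stood apart, with 1.31%. Its total of 65205262 reads lay inside the range of the others. So did its fragment length correction, the bases taken off each length to give the effective length, at 148.5 bases against 146.6 to 155.8 elsewhere. Results that rest on PwkB6 6 are given with and without it.

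Most of the longest transcripts were detected, but few were abundant. Reads were present in at least 1 library for 178 of the 200, and 22 (11%) had none in any library, against 19.1% of all transcripts. A library with 0 reads allows up to 3 reads, or 0.0415 to 0.0704 CPM depending on its total, counting error only. A transcript was taken as expressed when each library of some cross held 10 reads or more for it, which 125 (62.5%) met, against 39.4% of all transcripts. PwkB6 had 116 of these, MolfB6 114, SpretB6 109 and CastB6 103, and 94 were expressed in all 4 crosses. On the TPM scale the shares lay closer together. At least 1 TPM in all 4 libraries of a cross was reached by 64 (32%) of the 200 and by 25.0% of all transcripts, and at least 10 TPM by 10 (5%) and 8.07%. The next 200 transcripts by length, from 14134 to 11801 bases, gave 122 expressed by reads and 59 at 1 TPM or more.

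Mean levels over the 16 libraries spanned a wide range. Means of at least 10 TPM were found for 12 transcripts, 1 to 10 TPM for 54, 0.1 to 1 TPM for 38 and less than 0.1 TPM but above 0 for 74. The 10 most abundant held 50.5% of the summed level and the 50 most abundant 91.1%. The read filter of the tests kept 145 of the 200, while 33 with reads and the 22 without were not tested. These 145 had a median of 697.0 reads per library against 84.3 for all tested transcripts, at a median level of 0.83 TPM against 1.25 TPM.

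Of the 5 longest transcripts, 1 was expressed above 1 TPM and the other 4 had few or no reads for their length. The longest, ENSMUST00000020488.9 with 123179 bases, stood in CastB6 1, 3, 5 and 6 at 2.84, 2.75, 2.63 and 3.90 TPM, in MolfB6 1, 2, 3 and 6 at 3.67, 2.39, 3.61 and 3.38 TPM, in PwkB6 1, 3, 5 and 6 at 3.35, 2.90, 3.16 and 7.97 TPM, and in SpretB6 1, 3, 5 and 6 at 3.06, 2.93, 3.50 and 2.58 TPM. The crosses overlapped, and PwkB6 6 lay above the other 15 libraries. At these levels its reads per library numbered from 12125 in SpretB6 6 to 45534 in PwkB6 6. No difference between crosses was called for it (edgeR joint adjusted p = 0.69). ENSMUST00000099981.10, of 107355 bases, had reads in 4 libraries, of which MolfB6 3 held 79.6. ENSMUST00000111882.9, of 101674 bases, had 135.5 reads in CastB6 1 and 0 to 22.3 in the others. ENSMUST00000111846.9, of 100404 bases, had 3.5 reads in SpretB6 6 and 0 in all others, and ENSMUST00000011934.13, of 81999 bases, lay between 0 and 0.0573 TPM. Among the 50 longest, 26 were expressed and 12 reached 1 TPM, and in the next 3 sets of 50 by length 39, 26 and 34 were expressed and 18, 14 and 20 reached 1 TPM.

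The most abundant members reached means of 12.2 to 34.8 TPM, and for most of them PwkB6 6 lay above every other library. The ranking by mean takes in PwkB6 6, so a high value there also raises a member's rank. ENSMUST00000191428.7 (14814 bases) led with means of 54.4 ± 47.8 TPM for PwkB6, 29.5 ± 8.60 for CastB6, 29.0 ± 6.93 for MolfB6 and 26.3 ± 2.22 for SpretB6 (SD, n = 4 each). Its PwkB6 values were 33.5, 27.0, 31.0 and 126.0 TPM in libraries 1, 3, 5 and 6, so the high mean and SD of that cross came from 1 library, and without it the mean was 30.5 ± 3.26 (SD, n = 3). ENSMUST00000026292.15 (14579 bases) ranged from 23.6 to 40.0 TPM in 15 libraries and stood at 88.1 in PwkB6 6. ENSMUST00000071642.11 (17970 bases) ranged from 21.6 to 34.0 TPM and stood at 52.8 there. ENSMUST00000018851.14 (14342 bases) ranged from 21.6 to 32.4 TPM, with 66.8 in PwkB6 6. In ENSMUST00000151346.8 (17175 bases) the 15 libraries lay between 18.2 and 26.8 TPM and PwkB6 6 at 38.7. The next of these, ENSMUST00000042990.7 (15474 bases), had 22.3 TPM in PwkB6 6 and 14.1 to 22 elsewhere, so the highest of the others came close to it. ENSMUST00000032891.15 (15557 bases) and ENSMUST00000174189.2 (14369 bases) both averaged 14.3 TPM over the 16 libraries, with SDs of 3.21 and 7.75. ENSMUST00000112622.8 (14168 bases) stood between 5.66 and 14.2 TPM in 15 libraries and at 52.4 in PwkB6 6. None of these 9 was called different between crosses (edgeR joint adjusted p from 0.19 to 0.91), nor was ENSMUST00000092956.4, the ninth by level. Without PwkB6 6, ENSMUST00000174189.2 was called (edgeR joint adjusted p = 0.044), with means of 17.0 ± 2.36 TPM for the SpretB6 lines against 9.91 ± 2.54 for the CastB6 lines (SD, n = 4 each).

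In PwkB6 6 the long transcripts stood higher than in any other library. The summed level of the 200 was 1121 TPM there, against 424.5, 398.8 and 427.6 TPM in PwkB6 1, 3 and 5, a ratio of 2.69 to their mean. Over the 15 other libraries the sum ran from 297.2 TPM in MolfB6 2 to 477.1 TPM in CastB6 6. By cross it was 370.9 ± 75.0 TPM in CastB6, 400.2 ± 71.1 in MolfB6, 410.0 ± 39.7 in SpretB6 (SD, n = 4 each) and 593.1 ± 352.5 in PwkB6 (SD, n = 4), or 417.0 ± 15.8 in PwkB6 without library 6 (SD, n = 3). Without that library the 4 crosses overlapped in this sum and their means lay within the spread between lines.

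**Figure D1:**
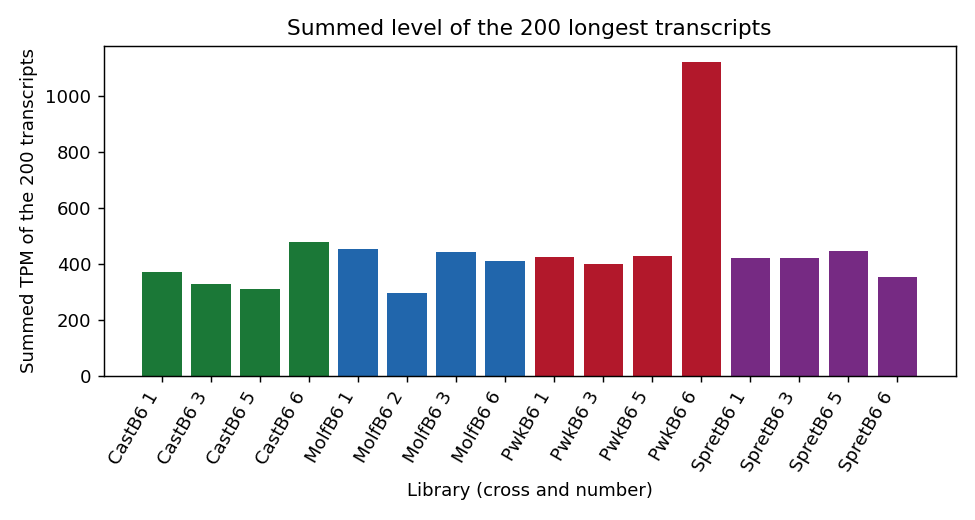
Bars give the summed TPM of the 200 longest transcripts in each of the 16 libraries, coloured by cross. PwkB6 6 reached 1121 TPM and the other 15 libraries lay between 297.2 and 477.1 TPM.

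Member by member, 88 of the 145 tested transcripts (60.7%) had their highest log2 CPM of all 16 libraries in PwkB6 6. Over all 56721 tested transcripts this share was 17.4%. Against the mean of the 3 other PwkB6 lines on the log2 CPM scale, 64 of the 145 (44.1%) were more than 2-fold higher in PwkB6 6, where the share over all tested transcripts was 17.5%, and 9 were more than 2-fold lower, with a share of 11.2% over all. No test stands behind these counts, since a line has 1 library. The median difference was 0.88 on the log2 scale for the members and 0.04 for all tested transcripts. Other lines moved less. CastB6 6 was more than 2-fold above the other CastB6 lines in 27 members (18.6%, against 12.5% over all) and more than 2-fold below in 15 (10.3%, against 8.68%). Its median difference was 0.44, and 82 of the 145 lay above all 3 other CastB6 lines, where the share over all was 24.9%. MolfB6 2 was more than 2-fold below the other MolfB6 lines in 19 (13.1%, against 13.6%) and above in 9 (6.21%, against 10.4%), and its median difference was -0.38.

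The shift of PwkB6 6 grew from class to class in transcripts of 1000 bases and longer. The median shift from the mean of the 16 libraries was -0.07 on the log2 CPM scale for transcripts under 500 bases, 0.08 for 500 to 999 bases and -0.11 for 1000 to 1999 bases, so there was no order among the shorter classes. It was 0.15 for 2000 to 3999 bases, 0.36 for 4000 to 7996 bases, 0.67 for 8004 to 14134 bases and 0.99 for the tested members. The other 15 libraries lay between -0.26 (MolfB6 2) and 0.20 (CastB6 6) for the members. Smaller shifts in order of length also occurred among them. From 1000 to 1999 bases up to the members, the shift rose in CastB6 6 (-0.002 to 0.20), MolfB6 1 (0.03 to 0.14) and PwkB6 5 (0.01 to 0.12). It fell in MolfB6 2 (0.12 to -0.26), CastB6 5 (0.08 to -0.24), CastB6 3 (0.08 to -0.22), SpretB6 6 (0.09 to -0.18) and PwkB6 3 (0.10 to -0.08). The remaining libraries kept no order. Among the 66 members with a mean of at least 1 TPM, length and the rise in PwkB6 6 were not ordered together (Spearman's rho 0.012 across 66 transcripts of the same libraries, a description). The total and the fragment length correction of PwkB6 6 lay within the range of the other libraries, as given above, and their part in the result was not tested. RNA quality and library preparation were not examined here, so their part was not tested either. In bulk RNA, more cells with a transcript and more RNA of it per cell also cannot be told apart.

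**Figure D2:**
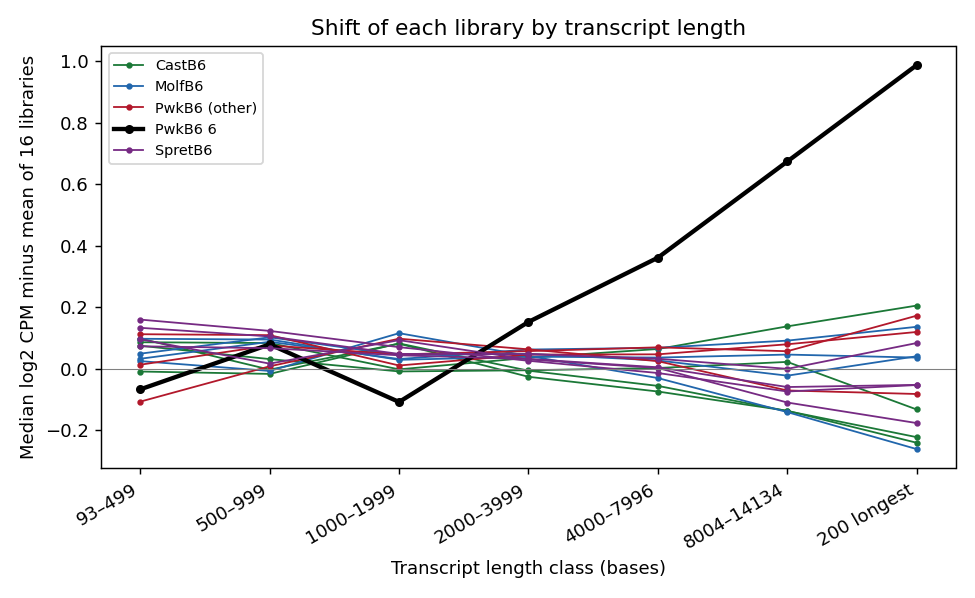
Lines give, for each library, the median over transcripts of log2 CPM minus the mean of 16 libraries (vertical axis) in 6 length classes and in the 145 tested members of the 200 longest (horizontal axis, bases). PwkB6 6, in black, climbed from 0.15 to 0.99 over the last 4 classes, while the other libraries stayed between -0.26 and 0.20 in the members.

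The size of the rise differed between members. Of the 66 with a mean of at least 1 TPM, 62 were higher in PwkB6 6 than in all 15 other libraries. The mean takes in PwkB6 6, so a member can reach the limit through that library. ENSMUST00000042614.13 (15482 bases), chosen afterwards, had 5.28 TPM there and 0.368 to 1.03 TPM in the other 15. Neither the count of 62 nor those by ratio were made over all transcripts. The ratio of TPM in PwkB6 6 to the mean of PwkB6 1, 3 and 5 was at least 4 for 11 of the 66, 2 to 4 for 38, 1 to 2 for 15 and under 1 for 2, with a median of 2.53. On the log2 CPM scale with TMM scaling, which gave PwkB6 6 the highest scaling factor of 1.19, the median was 1.93-fold, and 30 of the 66 (45.5%) passed 2-fold, against 10.2% of all tested transcripts with that mean level. The highest ratio, chosen after the values were seen, was that of ENSMUST00000023741.16 (19823 bases), with 14.2 TPM in PwkB6 6 and 0.870 to 1.497 in the other PwkB6 lines, a ratio of 12.4. ENSMUST00000043896.10 (16433 bases), also chosen afterwards, had 12.7 TPM against 1.16 to 1.62. The ratio was under 1 for ENSMUST00000165860.8 (15798 bases), with 0.254 TPM against 0.452 to 1.42, and for ENSMUST00000093902.12 (16716 bases), chosen afterwards, with 3.01 TPM against 1.77 to 6.62. Just above 1, at 1.14, ENSMUST00000160834.8 (15731 bases) had 6.43 TPM in PwkB6 6 and 5.05 to 6.01 TPM in the other PwkB6 lines.

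**Figure D3:**
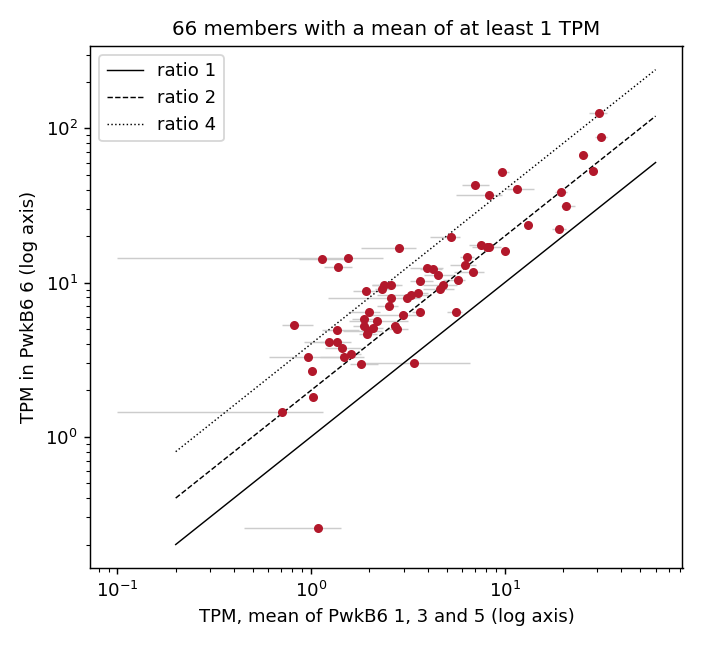
Each point is 1 of the 66 members with a mean of at least 1 TPM, with its TPM in PwkB6 6 (vertical, log axis) against the mean of PwkB6 1, 3 and 5 (horizontal, log axis). Grey bars run from the lowest to the highest of those 3 libraries, with a lowest value under 0.1 drawn at 0.1, and the lines mark ratios of 1, 2 and 4. All but 2 points lie above the line of ratio 1, and 49 at or above that of ratio 2.

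Differences between crosses were called for 12 of the 145 tested members, or 8.28%, in the joint edgeR quasi-likelihood test (Benjamini-Hochberg adjusted p under 0.05 over all tested transcripts). Over all tested transcripts the share was 9.73%, so the members' share was near the background. At an unadjusted p under 0.05 there were 36, where the share over all was 24%. Of the 74 members in the highest of 4 classes by mean log2 CPM, 8 were called, where the share over all transcripts of that class was 16.6%. The 12 called members were 14164 to 15783 bases long, so each ranked below the 50 longest, of which 33 were tested. Without PwkB6 6, 13 of 149 were called against 10.4% of all, and 8 were called both times. The count fell to 4 without CastB6 5, 6 without MolfB6 1 or MolfB6 6, 4 without SpretB6 1 or SpretB6 6 and 3 without SpretB6 3, and DESeq2 called 26 (17.9%, against 19.4% of all). Without these libraries the joint calls over all tested transcripts fell too, from 5519 to between 4093 (SpretB6 3) and 4597 (SpretB6 6). No member had at least 10 reads in all 4 libraries of 1 cross and at most 3 in every other library, or the reverse. The same was not counted over all transcripts, so whether the long ones differ from the rest in this cannot be said.

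In the pairs of crosses, CastB6 against MolfB6 had 0 members called by edgeR, where 2.76% of all tested transcripts were called, 1.58% higher and 1.18% lower in CastB6. MolfB6 against PwkB6 also had 0, where 1.2% of all were called, 0.615% higher and 0.587% lower in MolfB6. At an unadjusted p under 0.05 these pairs had 13 and 32 of the 145 members, where the shares over all were 14% and 12%. Limma voom called 0 and 2 members (2.97% and 1.42% of all), and DESeq2 4 and 10 (6.73% and 4.34% of all). CastB6 against PwkB6 gave 7 (3.76% of all), of which 6 were lower in CastB6 (1.52% of all) and 1 higher (2.24%). CastB6 against SpretB6 gave 7 (6.05% of all), 4 higher in CastB6 (2.95%) and 3 lower (3.1%). MolfB6 against SpretB6 gave 4 (5.53% of all), 2 higher in MolfB6 (2.41%) and 2 lower (3.12%). PwkB6 against SpretB6 gave 6 (5.5% of all), 5 higher in PwkB6 (2.18%) and 1 lower (3.32%). The splits against SpretB6 changed when each library's trend with length was removed, an alternative added after seeing the data. CastB6 then had 2 members higher (3.38% of all) and 7 lower (2.83%) than SpretB6, MolfB6 0 higher (2.27%) and 6 lower (3.18%), and PwkB6 2 higher (1.9%) and 5 lower (3.62%). Each cross enters 3 pairs, so the pairs share libraries. The pairs named 15 members, including all 12 of the joint test.

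ENSMUST00000080953.12 (15460 bases) had the smallest p-value and was highest in SpretB6. It stood at 22.8, 22.3, 19.2 and 12.8 TPM in SpretB6 1, 3, 5 and 6, at 9.25, 9.69, 9.83 and 11.3 TPM in CastB6 1, 3, 5 and 6, at 8.59, 4.59, 9.11 and 7.40 TPM in MolfB6 1, 2, 3 and 6, and at 3.81, 5.47, 4.30 and 11.2 TPM in PwkB6 1, 3, 5 and 6. All 4 SpretB6 libraries lay above the other 12, and PwkB6 6 lay apart from the 3 lower PwkB6 lines. The log2 fold change was -1.85 ± 0.23 for PwkB6 against SpretB6 (SE; edgeR adjusted p = 0.00017) and -2.12 ± 0.20 without PwkB6 6. For MolfB6 against SpretB6 it was -1.38 ± 0.23 (edgeR adjusted p = 0.0019) and for CastB6 against SpretB6 -0.84 ± 0.23 (edgeR adjusted p = 0.043). CastB6 also exceeded PwkB6, by 1.02 ± 0.23 (SE; edgeR adjusted p = 0.024), or 1.29 ± 0.20 without PwkB6 6. The calls of SpretB6 against MolfB6 and PwkB6 held in all 24 alternatives, and those with CastB6 were lost in 13 for SpretB6 and 8 for PwkB6, with the direction kept in all.

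ENSMUST00000043141.7 (15783 bases) was highest in PwkB6 at no more than 0.121 TPM in any library. Its reads numbered 67.0, 57.7, 81.8 and 83.4 in PwkB6 1, 3, 5 and 6 and 14, 16, 11 and 12 in SpretB6 1, 3, 5 and 6. CastB6 had 20.3 to 41.0 reads and MolfB6 20.5 to 47.0. On the TPM scale PwkB6 averaged 0.102 ± 0.0186, CastB6 0.0371 ± 0.0107, MolfB6 0.0357 ± 0.0137 and SpretB6 0.0174 ± 0.00356 (SD, n = 4 each), and the PwkB6 libraries lay above the other 12. PwkB6 exceeded SpretB6 by 2.38 ± 0.33 on the log2 scale (SE; edgeR adjusted p = 0.00043), and by 2.43 ± 0.35 without PwkB6 6 (edgeR adjusted p = 0.00098). CastB6 exceeded SpretB6 by 1.17 ± 0.32 (SE; edgeR adjusted p = 0.045), a call lost in 17 of 23 alternatives.

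SpretB6 was also the lowest cross for ENSMUST00000160834.8, ENSMUST00000095737.5 and ENSMUST00000217661.2. ENSMUST00000160834.8, whose ratio in PwkB6 6 was 1.14, stood at 3.96, 3.71, 4.17 and 2.94 TPM in SpretB6 1, 3, 5 and 6. PwkB6 averaged 5.83 ± 0.577 TPM, MolfB6 5.22 ± 0.739, CastB6 4.89 ± 1.03 and SpretB6 3.70 ± 0.535 (SD, n = 4 each). SpretB6 did not overlap with MolfB6 or PwkB6 but did with CastB6. All 3 crosses exceeded it by close to the same amount, 0.50 ± 0.12 in CastB6, 0.51 ± 0.12 in MolfB6 and 0.51 ± 0.12 in PwkB6 on the log2 scale (SE; edgeR adjusted p = 0.023, 0.020 and 0.021), and all 3 calls were lost when each library's trend with length was removed. The differences were then 0.48 in CastB6, 0.45 in MolfB6 and 0.23 in PwkB6 (edgeR adjusted p = 0.17, 0.22 and 0.60). ENSMUST00000095737.5 (14847 bases) had 14, 9.87, 25.1 and 9 reads in SpretB6 1, 3, 5 and 6 and 25.0 to 75.0 in the other 12 libraries, where 1 MolfB6 library overlapped with SpretB6 in reads. It was higher in CastB6 by 1.73 ± 0.37 and in PwkB6 by 1.81 ± 0.37 (SE; edgeR adjusted p = 0.011 and 0.0087). ENSMUST00000217661.2 (15111 bases) was higher in CastB6, at 0.296 ± 0.104 TPM, than in SpretB6, at 0.129 ± 0.0392 TPM (SD, n = 4 each), by 1.29 ± 0.30 on the log2 scale (SE; edgeR adjusted p = 0.018). This call was lost in 5 of 23 alternatives and the joint call in 12 of 22. ENSMUST00000067048.8 (15637 bases) was highest in MolfB6, with 134, 67, 113 and 163 reads in MolfB6 1, 2, 3 and 6 and 29, 36, 35 and 25 in SpretB6 1, 3, 5 and 6, a difference of 1.80 ± 0.43 (SE; edgeR adjusted p = 0.021). That call was lost in 7 of 23 alternatives and the joint call in 13 of 22. MolfB6 was not called against CastB6 or PwkB6 (edgeR adjusted p = 0.35 and 0.14). The estimates of ENSMUST00000067048.8 were whole numbers in all 16 libraries, which held for 4 of the 145 tested members (within 0.001 reads). For the others some reads were divided between transcripts, and that uncertainty is not in the tests.

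ENSMUST00000076226.13 (15250 bases) was higher in SpretB6, at 11.5, 11.7, 11.3 and 9.37 TPM in libraries 1, 3, 5 and 6, than in CastB6, at 5.59 to 8.32 TPM, and MolfB6, at 5.55 to 7.82 TPM, with no overlap. The log2 fold changes were -0.57 ± 0.16 for CastB6 against SpretB6 and -0.65 ± 0.16 for MolfB6 against SpretB6 (SE; edgeR adjusted p = 0.047 and 0.026). These calls were lost in 17 and 9 of 24 alternatives and the joint call in 17 of 23. PwkB6 1, 3 and 5 had 7.89, 6.57 and 8.10 TPM and PwkB6 6 had 17.5, the highest of all. With PwkB6 6 the difference of PwkB6 from SpretB6 was -0.35 ± 0.16 and not called (edgeR adjusted p = 0.25), and without it -0.58 ± 0.094 and called (edgeR adjusted p = 0.0023).

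**Figure D4:**
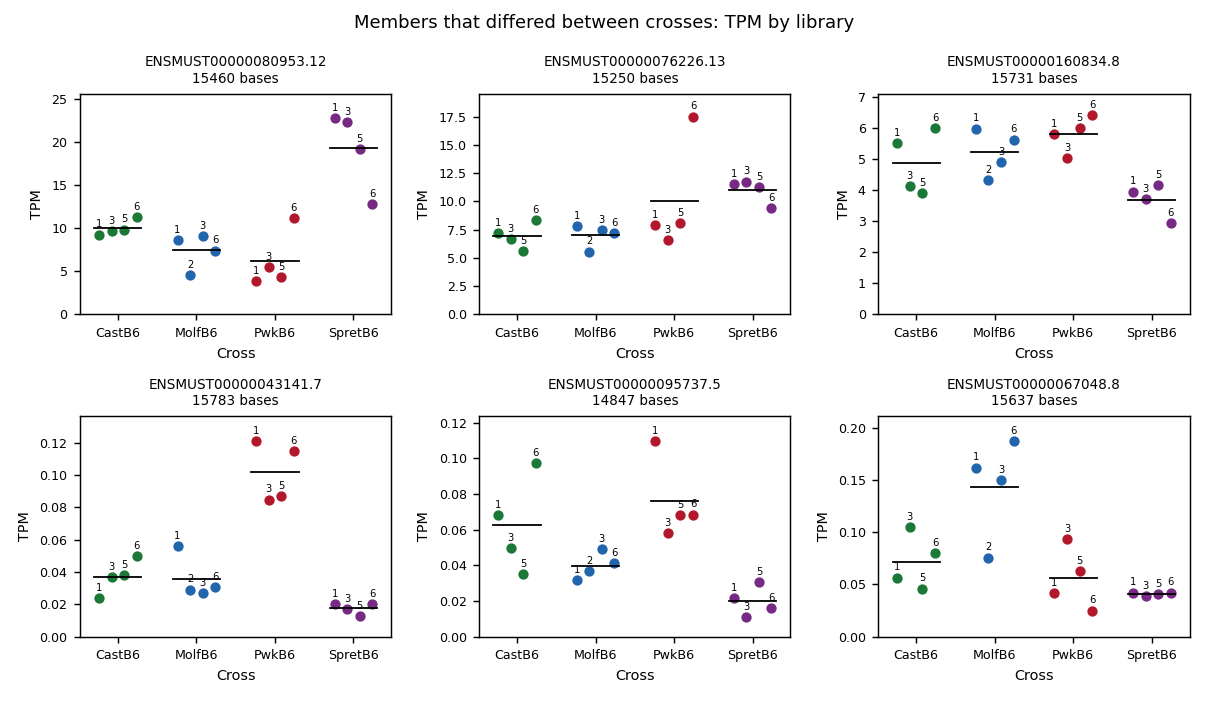
Points give the TPM of 6 members in each library, labelled with its number and coloured by cross, and black lines the mean of the 4 libraries of a cross. SpretB6 is highest in ENSMUST00000080953.12, PwkB6 in ENSMUST00000043141.7 and MolfB6 in ENSMUST00000067048.8, and the single high PwkB6 point of ENSMUST00000076226.13 is library 6.

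In CastB6 against PwkB6 the calls depended on several single libraries. Of the 7, 3 were also called without PwkB6 6, where 2.89% of all tested transcripts were called. ENSMUST00000049149.15 (14888 bases) stood at 4.13, 1.31, 1.19 and 4.98 TPM in CastB6 1, 3, 5 and 6 and at 9.46, 9.72, 5.59 and 37.2 TPM in PwkB6 1, 3, 5 and 6. The 2 crosses did not overlap. CastB6 over PwkB6 came to -2.07 ± 0.49 on the log2 scale (SE; edgeR adjusted p = 0.032), or -1.41 ± 0.41 without PwkB6 6 (edgeR adjusted p = 0.093). ENSMUST00000171332.2 (14176 bases) had 0.564 to 1.86 TPM in CastB6 and 3.23, 3.46, 1.81 and 16.8 TPM in PwkB6 1, 3, 5 and 6, with a small overlap, and its log2 fold change went from -2.06 ± 0.52 to -1.17 ± 0.37 without PwkB6 6 (SE; edgeR adjusted p = 0.042 and 0.12). ENSMUST00000023226.13 (15001 bases) went from -2.05 ± 0.48 to -1.75 ± 0.49 (SE; edgeR adjusted p = 0.030 and 0.084), and ENSMUST00000119943.8 (14991 bases) from -0.62 ± 0.14 to -0.52 ± 0.15 (SE; edgeR adjusted p = 0.028 and 0.079). ENSMUST00000035565.5 (14164 bases) stayed past the threshold in this pair, at -0.99 ± 0.22 and -0.72 ± 0.17 (SE; edgeR adjusted p = 0.022 and 0.045). Its joint call was lost without PwkB6 6 (edgeR joint adjusted p = 0.034 with it and 0.064 without). The count of members called in CastB6 against PwkB6 was 0 without CastB6 3 or CastB6 5, 3 without CastB6 6, 2 without PwkB6 1 and 11 without PwkB6 3. Calls over all tested transcripts went from 2134 to 1340, 1060, 1700, 1251 and 2025 in the same order.

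The median log2 fold change of all tested members moved with PwkB6 6. With PwkB6 as the second cross it was -0.48 from CastB6 and -0.44 from MolfB6, and PwkB6 against SpretB6 gave 0.42, where the medians over all tested transcripts were -0.09, -0.04 and 0.07. Without PwkB6 6 the members' medians were -0.16, -0.05 and 0.10, and with each library's trend with length removed they were -0.06, -0.07 and 0.01. Pairs without PwkB6 had medians of -0.08 (CastB6 against MolfB6), 0.02 (CastB6 against SpretB6) and 0.07 (MolfB6 against SpretB6), each of which took the other sign in at least 1 alternative. Also without PwkB6 6, CastB6 against MolfB6 had 2 members called (3.62% of all) and CastB6 against SpretB6 had 11 (7.34%). MolfB6 against PwkB6 had 0 by edgeR (1.05%), with 23 at an unadjusted p under 0.05, where the share over all was 10.4%. SpretB6 differed in 5 members from MolfB6 (6.62%) and in 5 from PwkB6 (4.75%). PwkB6 was higher in 3 of the latter and lower in 2 (1167 and 1617 of 58567 over all), and 4 of the 6 earlier calls were kept. Those lost, named here for that, were ENSMUST00000020441.13, from 1.17 ± 0.30 to 0.88 ± 0.28, and ENSMUST00000038053.14, from 1.03 ± 0.28 to 0.88 ± 0.30. Their edgeR adjusted p-values (SE given above) went from 0.034 to 0.10 and from 0.049 to 0.13.

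Lines of 1 cross differed in the long transcripts to a degree that depended on single libraries. The median SD of log2 CPM between the 4 lines for the tested members was 0.62 among PwkB6 lines, 0.43 among CastB6, 0.34 among MolfB6 and 0.33 among SpretB6, against 0.52, 0.45, 0.40 and 0.36 for all tested transcripts. The members' median exceeded that of all transcripts in PwkB6 alone when every library was kept, and without PwkB6 6 its median was 0.32 for the members and 0.43 for all. Without SpretB6 5 the SpretB6 median was 0.21. The share of a member's variance that lay between crosses had a median of 27.0%, against 30.5% for all tested transcripts. With no difference between crosses the expected share is 20%. Without PwkB6 6 the medians were 28.6% and 32.0%, where 21.4% is expected.

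Several long transcripts had many reads in some lines and 0 in others of the same cross. Of the 130 members with at least 100 reads in some library, 36 (27.7%) had 0 reads in another, against 19.6% of all transcripts with 100 reads or more. Both states occurred within a cross for 35 members, with CastB6 showing 23 such members, PwkB6 17, SpretB6 14 and MolfB6 12, and within all 4 crosses for 3. Shares within a cross over all transcripts are not given here, so these counts have no background to be read against. ENSMUST00000002095.11 (16461 bases) stood at 0, 1.46, 1.15 and 2.45 TPM in CastB6 1, 3, 5 and 6, at 2.34, 0, 2.32 and 14.5 TPM in PwkB6 1, 3, 5 and 6 and at 2.47, 2.33, 1.90 and 0 TPM in SpretB6 1, 3, 5 and 6, while the 4 MolfB6 libraries had 1.09 to 2.68 TPM. The zero thus fell on another line in each of 3 crosses. ENSMUST00000152564.8 (15541 bases) had 0 reads in 6 libraries and 259 to 3128 in the 10 others, with both states in every cross. ENSMUST00000165860.8 (15798 bases) had 0 reads in CastB6 3 and MolfB6 2 and up to 2977 elsewhere, in MolfB6 6. ENSMUST00000238731.2 (17268 bases) had 0 reads in 7 libraries and up to 849.9 in the others. None of these 4 had whole-number estimates in all libraries, so reads were divided between them and other transcripts. The part of this division in the zeros was not tested. No difference between crosses was called for them (edgeR joint adjusted p from 0.91 to 0.98). They were chosen for a large SD between lines, which by itself makes such a call unlikely.

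ENSMUST00000092956.4 (18100 bases) differed between lines without reaching 0. Its level was 19.3, 2.06, 4.39 and 13.0 TPM in CastB6 1, 3, 5 and 6, which held both the highest and the lowest value of the 12 libraries outside PwkB6. MolfB6 1, 2, 3 and 6 had 12.3, 8.03, 12.8 and 12.9 TPM, PwkB6 1, 3, 5 and 6 had 23.0, 19.6, 19.6 and 31.4 TPM, and SpretB6 1, 3, 5 and 6 had 7.26, 8.51, 12.1 and 7.82 TPM. All 4 PwkB6 libraries, with or without library 6, lay above the other 12. The joint test did not call it (edgeR joint adjusted p = 0.22).

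**Figure D5:**
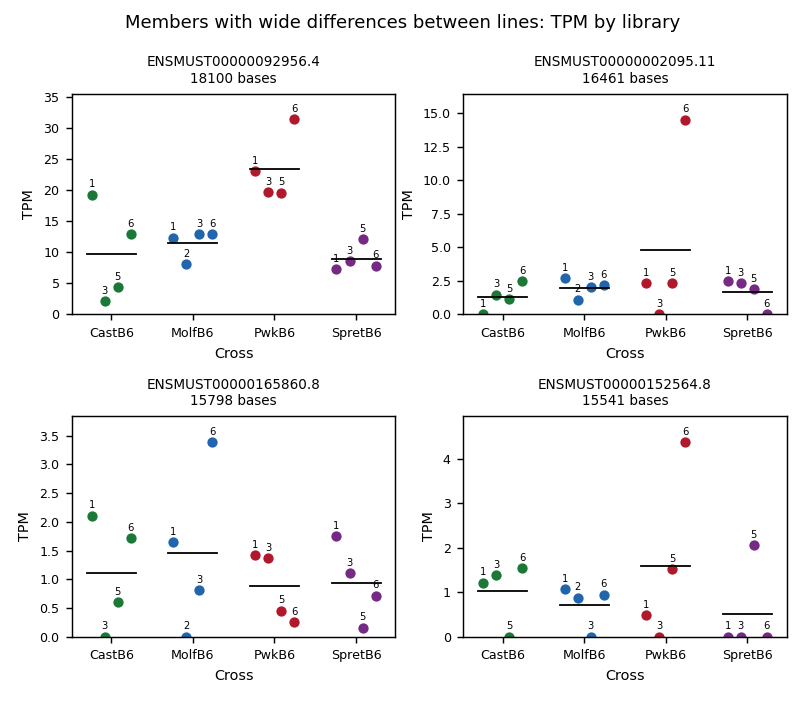
Points give the TPM of 4 members in each library, labelled with its number and coloured by cross, and black lines the mean of the 4 libraries of a cross. Zeros fall on CastB6 1, PwkB6 3 and SpretB6 6 in ENSMUST00000002095.11, and ENSMUST00000092956.4 runs from 2.06 to 19.3 TPM within CastB6.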

How the data were processed

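Bulk RNA of 16 epiblast stem cell libraries was measured, 4 for each of 4 crosses, grouped by their titles. Reads were quantified per transcript with Salmon, and DESeq2 and mm10 are also named, per the submitters' processing notes (versions not given in the sources used here). Per the file headers, the authors deposited for each transcript an estimated count, a TPM value, a length and an effective length. Estimates divide reads among similar transcripts and need not be whole.

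The members are the 200 longest of 116747 transcripts. The members, rules and tests were chosen with earlier results of these data known. Estimated counts were rounded and fitted over the whole table with edgeR 4.0.16 in R 4.3.3 (quasi-likelihood test, TMM scaling, no covariates, all 16 libraries), after edgeR's filter on low expression (minimum count 10, minimum total 15). Benjamini-Hochberg adjustment ran over all 56721 transcripts tested, with a threshold of 0.05. Values of log2 CPM used a prior count of 2. TPM values were used as deposited. The test scripts were checked on simulated data. DESeq2 1.42.0, limma 3.58.1, other filters and scalings, the line number as a block and leaving out each library were alternatives. Named members are the 5 longest, the 10 with the highest mean TPM, up to 15 of those called jointly by p-value, for each pair the 2 largest changes each way, and for each cross the 2 with the largest SD between lines. Totals ran from 42596559 to 72364991 reads, and intervals and limits cover counting error only. The files do not pair transcript IDs with genes, so no gene list or marker was used.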

Additional observations from a re-analysis of the deposited data

Results flagged for a closer look

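In 33 of 132 groups of 4 libraries examined, 1 library stood apart, meaning that its gap to the nearest other library, divided by the range of the group, exceeded Dixon's 95% critical value. A rate of 1 in 20 would give 6.6, but that is no valid expectation here. Most groups are of named members, some of them chosen for a large SD between lines, and the critical value assumes normally distributed values. Members of a cross also share libraries, and groups with 3 zeros give this result by themselves. PwkB6 6 was the library in 16 of the 33.

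For PwkB6 6 the summed level of the 200 transcripts was 1121 TPM and their share of reads 1.31%. Its TPM stood apart for ENSMUST00000191428.7 (126.0), ENSMUST00000026292.15 (88.1), ENSMUST00000018851.14 (66.8), ENSMUST00000071642.11 (52.8) and ENSMUST00000112622.8 (52.4). The same held for ENSMUST00000174189.2 (40.2 TPM), ENSMUST00000151346.8 (38.7), ENSMUST00000049149.15 (37.2), ENSMUST00000032891.15 (23.7) and ENSMUST00000076226.13 (17.5). It also held for ENSMUST00000171332.2 (16.8 TPM), ENSMUST00000002095.11 (14.5), ENSMUST00000020488.9 (7.97) and ENSMUST00000011934.13 (0.0573). In all of these PwkB6 6 was the highest line of its cross.

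CastB6 6 was the high line of its cross for ENSMUST00000191428.7 (42.3 TPM), ENSMUST00000151346.8 (25.5), ENSMUST00000174189.2 (13.7), ENSMUST00000020488.9 (3.90) and ENSMUST00000099981.10 (0.00275). MolfB6 2 was the low line for ENSMUST00000026292.15 (23.6 TPM) and ENSMUST00000092956.4 (8.03). SpretB6 6 was low for ENSMUST00000191428.7 (23.0 TPM), and SpretB6 5 high for ENSMUST00000049149.15 (6.08) and ENSMUST00000152564.8 (2.07).

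The remaining cases had few reads. MolfB6 1 was high for ENSMUST00000043141.7 (0.0562 TPM). CastB6 1 was high for ENSMUST00000111882.9 (0.0243 TPM), as was MolfB6 6 (0.00151), while PwkB6 3 was low for it (0.000737). MolfB6 3 was high for ENSMUST00000099981.10 (0.0153 TPM), as was SpretB6 5 (0.00329), and SpretB6 6 was high for ENSMUST00000111846.9 (0.000904).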

How the results depend on the processing

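No called fold change of a named member changed direction under the alternatives run. The small median differences did: CastB6 against SpretB6 had the other sign in 8 of 24 alternatives (-0.11 to 0.09 on the log2 scale), CastB6 against MolfB6 in 1 (-0.25 to 0.01) and MolfB6 against SpretB6 in 1 (-0.02 to 0.12). Scaling by DESeq2 size factors left each count of called members the same (12 jointly). The joint count of 12 became 7 with no filter on low counts and 26 with DESeq2, and 3 to 17 when 1 library was left out. Calls over all tested transcripts went from 5519 to 4317 (of 94417 tested), 11022, and 4093 to 6662 over the same settings. CastB6 against MolfB6, with 0, gave 1 with a filter of 5 CPM, 2 with the trend with length removed (added after seeing the data), 1 with only these crosses fitted, 4 with DESeq2 and 0 to 2 without 1 library (2 without PwkB6 6). Its calls over all went from 1564 to 1394 (of 18781 tested), 1695, 1480, 3817 and 871 to 2123 over the same settings. CastB6 against PwkB6, with 7, gave 4 with no filter, 0 with only these crosses, 17 with DESeq2 and 0 to 11 without 1 library. Its calls over all went from 2134 to 1403 (of 94417 tested), 658, 5679 and 1060 to 3380. CastB6 against SpretB6, with 7, gave 3 with no filter, 3 with a filter of 5 CPM, 12 with only these crosses, 14 with DESeq2 and 2 to 11 without 1 library, where leaving out any CastB6 or SpretB6 library gave 2 or 3, MolfB6 1, MolfB6 6, PwkB6 1 or PwkB6 5 gave 4 and PwkB6 6 gave 11. Its calls over all went from 3430 to 2571 (of 94417 tested), 2505 (of 18781 tested), 3978, 6256 and 2386 to 4301. MolfB6 against PwkB6, with 0, gave 2 with only these crosses, 2 with limma voom, 10 with DESeq2 and 0 to 3 without 1 library (1 without CastB6 1 or MolfB6 1, 3 without PwkB6 3). Its calls over all went from 682 to 372, 805, 2459 and 437 to 990. MolfB6 against SpretB6, with 4, gave 2 with a filter of 5 CPM, 10 with only these crosses, 10 with DESeq2 and 1 to 6 without 1 library (1 without MolfB6 1, MolfB6 6 or SpretB6 3, 2 without SpretB6 1 or SpretB6 5). Its calls over all went from 3137 to 2311 (of 18781 tested), 4217, 5606 and 2169 to 3877. PwkB6 against SpretB6, with 6, gave 18 with DESeq2 and 3 to 10 without 1 library (3 without PwkB6 1 or SpretB6 3, 10 without PwkB6 3). Its calls over all went from 3121 to 5975 and 2088 to 3646. Expressed members numbered 64 at 1 TPM in place of 10 reads, and 125 to 129 without 1 library. DESeq2 called 4.34% to 11.03% of all tested transcripts in the pairs. The causes were not tested.

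With the line number as a replicate block, 3 members were called jointly, and 3581 of all tested transcripts in place of 5519. CastB6 then differed in 0 members from MolfB6, 1 from PwkB6 and 4 from SpretB6, MolfB6 in 0 from PwkB6 and 1 from SpretB6, and PwkB6 in 4 from SpretB6. Calls over all in these pairs were 797, 1360, 2529, 304, 1717 and 2352. They stood in place of 1564, 2134, 3430, 682, 3137 and 3121. Libraries share only a number: deviations from the cross means of 21 same-numbered pairs correlated with a mean r of 0.00083 (-0.067 to 0.13), and MolfB6 2 has no partner and drops out of that fit. Values of the single members named were counted together with the median SDs between lines. Those medians have no threshold and counted as kept when they changed little. Leaving out 1 library kept 624 of all these values, took 189 below the threshold and 1 above, and moved 2 of the medians. The other alternatives kept 304, took 61 below and 1 above. With no filter on low counts, all 178 members with reads were tested.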
